A study of Musca domestica with 8 samples.

Results

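Oxidative phosphorylation was described through 306 of 35834 assembled housefly (Musca domestica) transcript contigs. A contig was a member when its best database match was an insect protein whose name read as a subunit of respiratory complexes I to V, or as an assembly factor or other protein caught by the same words. The 537 contigs with such a name included 231 matched to species other than insects, and these were set apart. Of the members, 47 named nuclear-encoded subunits, 254 named subunits encoded in the mitochondrial genome, 3 named assembly factors of cytochrome c oxidase and 2 named V-type ATP synthase subunits, which belong to another pump and were left out of the sums.

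All 8 samples, No.1 to No.8, carry a single label, 791spin. This is a housefly strain selected with spinosad, an insecticide acting on nicotinic acetylcholine receptors, from the multi-resistant strain 791a of Danish field origin. The labels give every sample the same description, RNA of about 60 pooled whole adults of both sexes, 5 to 7 days old and fed sugar. The study's methods give this preparation for a single pyrosequencing library with far fewer reads than any of the 8 samples has counts, so how far it holds for each sample is not known. No sample is labelled as a susceptible strain, so no groups could be compared, and nothing states that the samples came from separate cultures. The p-values below therefore measure only the spread between these samples, which may be technical.

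The total per sample ranged from 10266664 to 16115208 counts. Values are CPM, the count of a contig divided by its sample total and multiplied by 1000000, and the counts of a sample with fewer than 3 counts were set to 3 before ratios were taken. No.1 and No.2 were the deepest samples, and 43.2% of 11890 contigs averaging at least 50 counts had their highest value in either of them. By single samples, 3165 contigs were highest in No.2, 2542 in No.3 and 1974 in No.1, so this count does not set the pair apart from No.3. The nuclear and mitochondrial sums, the members' range counts, the ratio and the correlations are also given without No.1 and No.2. So is the nuclear contigs' count of highest values. The summed level of 27 contigs named as yolk proteins ran from 7.19 to 126 CPM in No.1, No.3, No.5 and No.7. It ran from 205 to 3934 CPM in No.2, No.4, No.6 and No.8, and was highest in No.8, No.4 and No.6. This spread goes against the labels' description of every sample as a like pool of both sexes. Eggshell proteins (7 contigs) reached 397 CPM in No.8. The 2 contigs named for axonemal dynein, testis or sperm ran from 76.5 CPM in No.2 to 329 CPM in No.8. They were thus highest in the same sample as the yolk and eggshell lists, but they span only 513 bp together. The sex make-up of each sample was not tested. In whole-body pools, fewer cells of a type and less RNA per cell cannot be told apart.

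Oxidative phosphorylation is the last stage of aerobic energy production. Complex I (NADH dehydrogenase) and complex II (succinate dehydrogenase) pass electrons to ubiquinone, complex III passes them to cytochrome c, and complex IV (cytochrome c oxidase) passes them to oxygen. Complexes I, III and IV pump protons, and complex V (ATP synthase) uses the gradient to make ATP. Most subunits are nuclear genes, and a small core is transcribed inside the mitochondrion from its own genome. In flies, flight muscle is among the tissues richest in mitochondria.

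The annotation covered the system unevenly. The nuclear contigs named 25 different subunits plus 1 complex I contig with no subunit name, and 42 of the 47 were matched to tsetse flies (Glossina). A further 15290 contigs of the series were matched to Drosophila, of which 13317 carried only a gene code in place of a protein name, and just 1 of the Drosophila matches was a member. No contig was named as SDHA, the flavoprotein of complex II, so nuclear sums below are those of the named subunits and not of whole complexes. The mitochondrial contigs named 12 subunits, of the 13 protein genes that the RefSeq housefly annotation (assembly Musca_domestica.polishedcontigs.V.1.1) lists on the mitochondrial chromosome. The remaining gene, cytochrome b of complex III, did not fall under the name rule and is described with the related genes. Accessions of the members' matches did not occur in that annotation, so 0 of 306 could be tied to a RefSeq gene by accession.

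Together the members took 2.10% ± 0.55 (SD, n = 8) of all counts. Nuclear-encoded subunits took 0.801% ± 0.221 and mitochondrially encoded ones 1.29% ± 0.37. The share of all members was lowest in No.2, at 1.37%, and highest in No.5, at 3.08%.

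Nuclear-encoded subunits were highest in No.5 and No.6 and lowest in No.2 and No.1. The 44 nuclear contigs averaging at least 5 counts summed to 8013 CPM ± 2211 (SD, n = 8), with a lowest value of 5716 CPM in No.2, a median of 7520 CPM and a highest value of 11563 CPM in No.5. No.6 followed with 10773 CPM, then No.4 with 8815 CPM. The highest sample was therefore 2.02 times the lowest. With TMM library sizes, which shift No.3 by -0.29 and No.5 by 0.26 on the log2 scale, the same 2 samples were the extremes and the ratio was 2.51. Without No.1 and No.2 the sum was 8747 CPM ± 2063 (n = 6).

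The shape of the nuclear sum was also counted contig by contig. The samples counted are the ends of the sum of these same contigs. The counts therefore describe how alike the contigs ran and are not independent of that sum. Of the 42 nuclear contigs averaging at least 50 counts, 20 had their highest CPM in No.5 and 9 in No.6. These 29 contigs stood beside a background of 11% of 11890 contigs of the series with a highest value in either sample. The count was 37 beside 21.1% of all contigs with TMM library sizes, and 35 beside 20% with DESeq2 size factors. Over the 6 samples without No.1 and No.2 it was 30 of 42, beside 15.3% of all contigs. Lowest values fell in No.1, No.2 or No.8 for 34 of the 42, beside 51.8% of all contigs. This count was 29 beside 55.9% with TMM library sizes and 30 beside 54.9% with DESeq2 size factors. Only 3 of the 42 were highest in No.1 or No.2, where 43.2% of all contigs had their highest value.

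**Figure D1:**
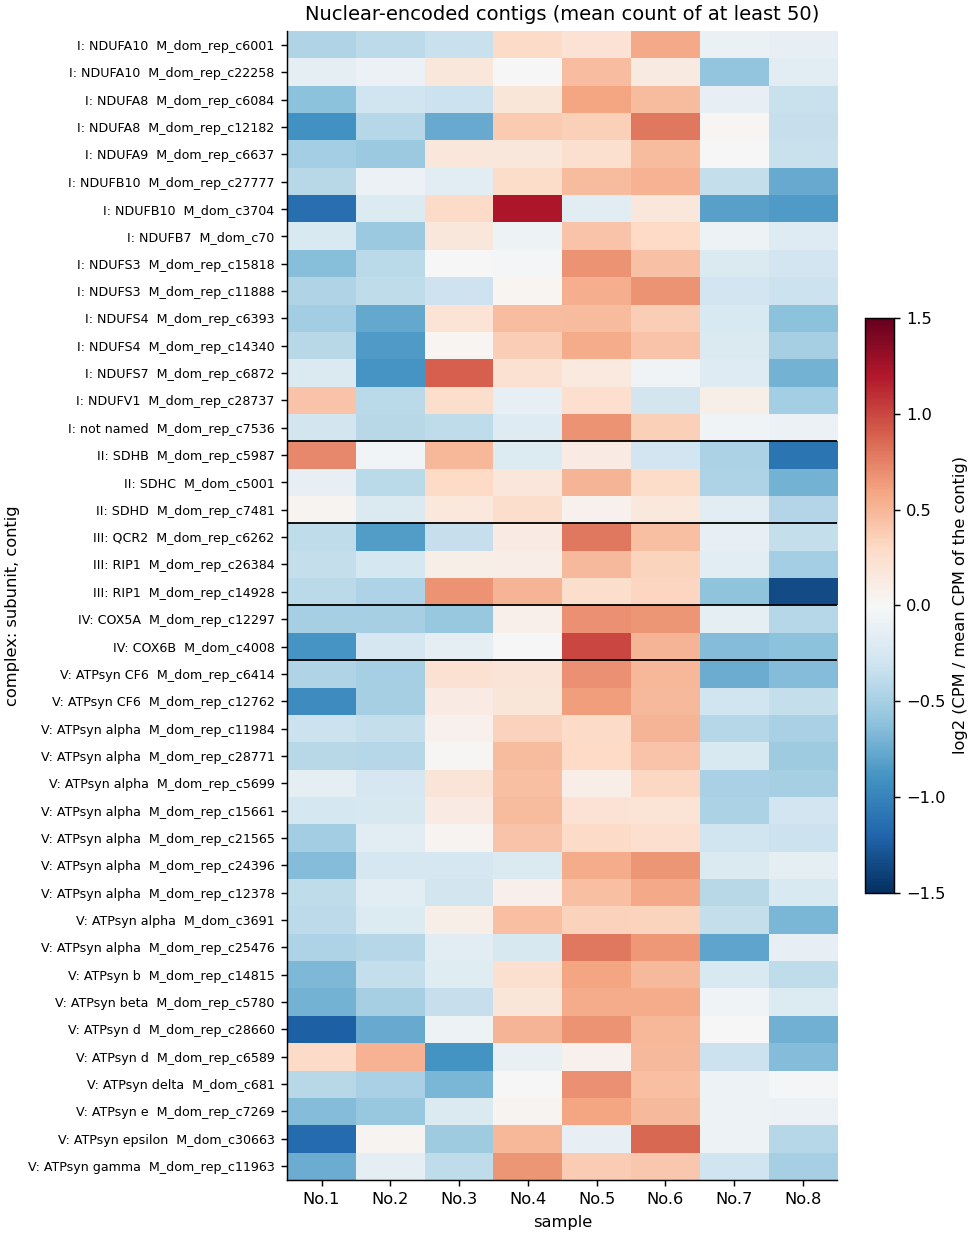
Level of the 42 nuclear-encoded contigs averaging at least 50 counts in each of the 8 samples, as log2 of CPM over the contig's own mean. Rows are contigs grouped by complex, red is above and blue below the mean, and the columns No.5 and No.6 are red in most rows while No.1, No.2, No.7 and No.8 are mostly blue.

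Nuclear subunits also varied over a narrower range than most contigs. A chi-square test of the 8 counts against the sample totals called 44 of 44 nuclear contigs at an adjusted p below 0.05, and 212 of the 236 members tested, while 95.1% of 23597 contigs were called, so variation beyond counting error was general. A highest value at least 4 times the lowest was found for 3 of 42 nuclear contigs, for 33 of 129 members and for 50% of all contigs. The median ratio of highest to lowest was 2.39 for the nuclear contigs and 4.00 for all 11890 contigs. Among contigs averaging at least 1000 counts the 4-fold range was reached by 0 of 23 nuclear contigs and by 47.7% of 1304 contigs. Without No.1 and No.2 it was reached by 2 of 42 nuclear contigs and by 10 of 129 members, beside 22.4% of all contigs. Leaving out No.2 alone lowered the members' count from 33 to 20, but the share of all contigs was not computed for this setting. No.2 held the highest value of 3165 and the lowest value of 3470 of the 11890 contigs.

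Division by the summed CPM of the other nuclear subunits narrowed the range of 38 of the 42 nuclear contigs, beside 30.3% of all contigs. The divisor is built from the same group of genes, so this describes how alike they ran and is not independent of the first count.

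**Figure D2:**
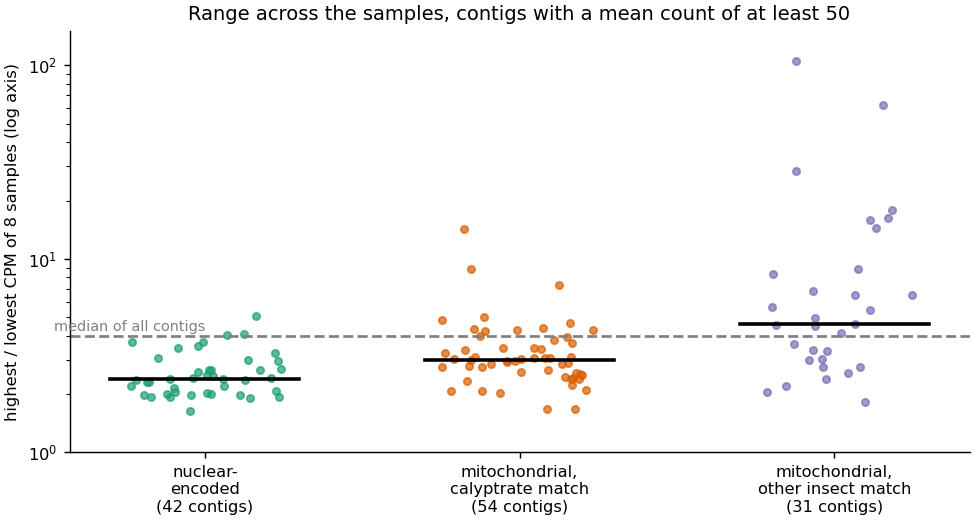
Ratio of the highest to the lowest CPM over 8 samples (log axis) for each contig averaging at least 50 counts, in 42 nuclear-encoded contigs, 54 mitochondrially encoded contigs with a calyptrate match and 31 with a match to another insect. Thick lines are group medians (2.39, 3.00 and 4.58), the dashed line is the median of all contigs (4.00), and the nuclear points lie mostly below it.

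Complex I takes electrons from NADH, and its 15 nuclear contigs summed to 2870 CPM ± 691 (SD, n = 8). The sum ran from 1949 CPM in No.2 through a median of 2852 to 3856 CPM in No.5. The most abundant contig was M_dom_rep_c6872, NDUFS7, which carries the iron-sulfur cluster next to the ubiquinone site. It went from 420.2 CPM in No.2 through a median of 717 CPM to 1452 CPM in No.3, 3.46-fold. NDUFS7 thus departed from the other subunits, and its level as a percentage of the other nuclear subunits was 22.8% in No.3 against 7.49% to 12.8% in the other samples. Without NDUFS7 the complex I sum was 2092 CPM ± 520 and No.5 was still the highest sample. The second contig, M_dom_rep_c7536, named only as NADH:ubiquinone dehydrogenase, ranged from 479 to 1022 CPM with a median of 578 and was highest in No.5.

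The accessory subunits NDUFB7 (M_dom_c70) and NDUFA9 (M_dom_rep_c6637) followed the common shape. NDUFB7 ran from 206 CPM in No.2 through 288 to 409.7 CPM in No.5, and NDUFA9 from 176 CPM in No.2 through 275 to 358 CPM in No.6. The 2 most counted contigs of a subunit ran in parallel in some subunits and not in others. Over 9 subunits of all complexes, the ratio between them varied over the samples from 1.23-fold for NDUFS4 and 1.46-fold for NDUFS3, through 1.69-fold to 1.99-fold for NDUFA8, Cf6 and NDUFA10 and 2.68-fold to 3.44-fold for RIP1, NDUFB10 and SDHB, to 4.98-fold for ATP synthase d. Of the NDUFB10 contigs, M_dom_c3704 peaked in No.4 at 18.3 CPM and was lowest in No.1 at 3.60 CPM, a 5.09-fold range that was the widest of any nuclear contig. NDUFV1 (M_dom_rep_c28737), the NADH-binding flavoprotein, was highest in No.1 at 125 CPM and lowest in No.8 at 65.2 CPM. NDUFB10 and NDUFV1 were singled out after their values were seen.

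Complex II oxidises succinate, links the citric acid cycle to the chain, and has no mitochondrially encoded subunit. Its 5 contigs summed to 462 CPM ± 90.5 (SD, n = 8), from 313 CPM in No.8 through 497 to 546 CPM in No.5. SDHD (M_dom_rep_c7481), a membrane anchor, had the smallest range of all 129 members averaging at least 50 counts. It lay between 201 CPM in No.8 and 326 CPM in No.4 with a median of 282, a ratio of 1.63. SDHC (M_dom_c5001), the cytochrome b subunit of the complex, ran from 99.6 CPM in No.8 through 166 to 231 CPM in No.5. SDHB, the iron-sulfur subunit, had another order of samples. Its main contig M_dom_rep_c5987 was highest in No.1 at 41.5 CPM, had a median of 23.2 CPM and was lowest in No.8 at 11.8 CPM. A second SDHB contig, M_dom_rep_c13832, stayed between 0.638 and 2.93 CPM. As a percentage of the other nuclear subunits SDHB went from 0.205% in No.8 to 0.747% in No.1.

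Complex III was named in only 3 contigs, which summed to 507 CPM ± 182 (SD, n = 8). QCR2 (M_dom_rep_c6262), a core protein, supplied most of this and ran from 249 CPM in No.2 through 379 to 765 CPM in No.5, 3.07-fold. RIP1, the Rieske iron-sulfur protein, had a pair of contigs that differed in shape. M_dom_rep_c26384 was highest in No.5 at 53.1 CPM with a median of 37.3 and a lowest value of 26.6, whereas M_dom_rep_c14928 was highest in No.3 at 40.0 CPM with a median of 24.5 and a lowest value of 9.84. Both were lowest in No.8.

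Complex IV had 2 nuclear contigs. COX5A (M_dom_rep_c12297) stood near 600 CPM in No.1, No.2, No.3 and No.8, at 607, 604, 579 and 635 CPM, but reached 1377 CPM in No.5, with 1358 CPM for No.6. No.4 and No.7 lay between, at 903 and 781 CPM. COX6B (M_dom_c4008) ran from 77.3 CPM in No.1 through 125 to 286 CPM in No.5, 3.70-fold. The 3 assembly factor contigs were low and did not follow the structural subunits. COX17, which carries copper to the enzyme, ran from 5.29 CPM in No.8 to 19.6 CPM in No.3 on M_dom_c4000, and from 3.11 CPM in No.4 to 9.47 CPM in No.7 on M_dom_rep_c29293. COX15 (M_dom_c4034), needed for the synthesis of haem A, lay between 0.496 CPM in No.1 and 4.91 CPM in No.4.

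Complex V had the largest nuclear sum, 3175 CPM ± 978 (SD, n = 8) over 19 contigs. It ran from 2046 CPM in No.1 through 2788 to 4651 CPM in No.5. Subunit e (M_dom_rep_c7269), a small membrane subunit involved in dimer formation, ran from 622 CPM in No.1 through 924 to 1474 CPM in No.5. The catalytic beta subunit (M_dom_rep_c5780) ran from 509.7 CPM in No.1 through 763 to 1225 CPM in No.5, with 1224 CPM in No.6. Subunit b (M_dom_rep_c14815), part of the stator stalk, ran from 201 to 482 CPM with a median of 278, and Cf6 (M_dom_rep_c6414), another stalk protein, from 111 to 300.1 CPM with a median of 175. These 4 contigs were all highest in No.5.

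The alpha and beta subunits alternate in equal number around the catalytic head, but their contigs differed in level. Alpha was split over 9 contigs of 612 to 1959 bp with mean levels between 10.1 and 21.5 CPM, all with ranges between 1.93-fold and 2.99-fold. Even with all 9 added up and divided by the longest alpha contig, beta per kilobase was 4.47 to 7.28 times alpha and was higher in 8 of 8 samples. How the deposited counts treated reads that match several contigs was not given in the sources used here, so levels of a subunit split over near-identical contigs are uncertain.

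Among the 9 subunits whose 2 most counted contigs were compared, subunit d showed the widest split, and it was singled out after its values were seen. Contig M_dom_rep_c28660 had its lowest value in No.1, at 76.2 CPM, and its highest in No.5, at 282 CPM. Contig M_dom_rep_c6589 had its highest value in No.2, at 168 CPM, and its lowest in No.3, at 63.1 CPM. Their ratio was 0.533 in No.1 and 0.626 in No.2 and lay between 1.44 and 2.65 in the other 6 samples. The SDHB pair also set No.1 and No.2 apart, with ratios of 25.7 and 25.4 against 7.48 to 18.4 in the other 6. Contig pairs outside these 9 subunits were not compared.

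**Figure D3:**
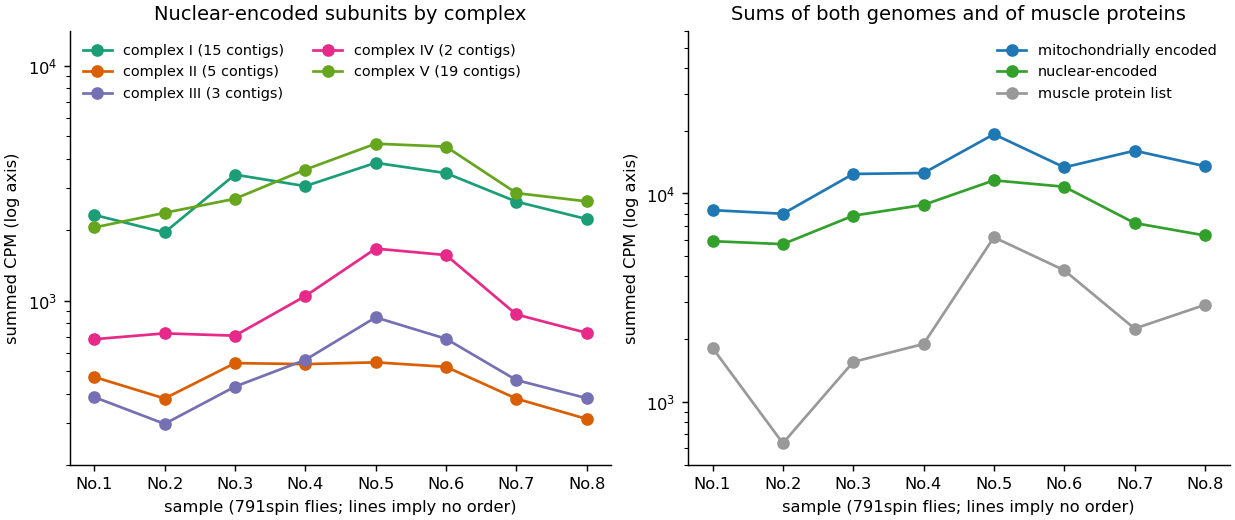
Summed CPM per sample on log axes, for the nuclear contigs of complexes I to V (left) and for nuclear-encoded subunits, mitochondrially encoded subunits and a list of muscle proteins (right). Every nuclear complex is highest in No.5, complex II spans the smallest range (313 to 546 CPM) and complex III the largest (298 to 848 CPM), and the muscle list also peaks in No.5 and No.6.

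The sums of the complexes were compared pairwise across the 8 samples, as 10 pairs plus the mitochondrial against the nuclear sum, 11 relations in all. The largest gap between neighbouring nuclear sums was 33.5% of their range, and the samples were not treated as separate clusters. Complexes III, IV and V ran most closely together. Pearson's r for IV against V was 0.97 (exact permutation p = 0.000124, adjusted p = 0.00136, n = 8) with Spearman's rho of 0.93 (exact permutation p = 0.00223, adjusted p = 0.00818). For III against IV, r was 0.96 (exact permutation p = 0.000546, adjusted p = 0.00218) with rho of 0.81 (exact permutation p = 0.0218, adjusted p = 0.0399). For III against V, r was 0.95 (exact permutation p = 0.000595, adjusted p = 0.00218) with rho of 0.93 (exact permutation p = 0.00223, adjusted p = 0.00818). After leaving out the 2 samples farthest from the median, these 3 values of r were 0.92, 0.84 and 0.85.

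Complex I passed the exact permutation test against each other complex by r, with r from 0.77 against IV (adjusted p = 0.0358) to 0.87 against III (adjusted p = 0.00737), and r after leaving out No.5 and No.2 lay between 0.61 and 0.79. By rho, complex I against IV did not pass, at 0.64 (exact permutation adjusted p = 0.118). Complex II against III, IV and V gave r of 0.65, 0.55 and 0.57 and did not pass (exact permutation adjusted p = 0.102, 0.16 and 0.158). In all, 7 of the 11 relations passed by r and 6 by rho. All sums share the sample total as divisor, and a sum is led by its 1 or 2 most abundant contigs. With TMM library sizes or DESeq2 size factors 11 of 11 passed by r. Without No.1 and No.2 4 passed, namely I against II and the 3 pairs among III, IV and V, and 3 passed without No.2 or without No.5 alone.

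The muscle list shared its highest and lowest samples with the nuclear sum. Its 47 contigs, named as contractile proteins such as myosins and troponins, gave 6168 CPM for No.5, 4281 CPM for No.6 and 634 CPM for No.2. The other 5 samples lay between 1556 and 2923 CPM and had another order. No.8 was above No.3 for muscle, at 2923 and 1556 CPM, but below it for the nuclear sum, at 6290 and 7825 CPM. Muscle contigs ranged more widely than nuclear subunits, since 30 of 36 reached the 4-fold range with a median ratio of 9.87, beside 50% of all contigs. Of these 36, 29 were lowest in No.2. Without No.1 and No.2 the 4-fold range was reached by 13 of 35, beside 22.4% of all contigs. The yolk list did not follow, since it stood at 126 CPM in No.5 but 1827 CPM for No.6. The part of muscle content in the nuclear sums was not tested.

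Mitochondrially encoded subunits were also highest in No.5 and lowest in No.2. The 189 contigs averaging at least 5 counts summed to 12926 CPM ± 3706 (SD, n = 8), from 7995 CPM in No.2 through a median of 12940 to 19244 CPM in No.5. Without No.1 and No.2 the sum was 14515 CPM ± 2661 (n = 6). No.7 was second at 16041 CPM, while its nuclear sum, 7215 CPM, lay just below the nuclear median of 7520 CPM. The mitochondrial against the nuclear sum gave r of 0.71 (exact permutation p = 0.0455, adjusted p = 0.0625) and rho of 0.64 (exact permutation p = 0.0962, adjusted p = 0.118), and r was 0.30 without No.5 and No.2. In CPM over all contigs the relation therefore did not pass after adjustment and rested on those samples. Without the most counted ND1 contig, described below, this relation passed too, with 8 of the 11 passing by r and 7 by rho. It was also among the 11 that passed by r with TMM library sizes or DESeq2 size factors. No value of r without the farthest samples is given for these settings.

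The matches of the mitochondrial contigs fell into 2 kinds. In 168 of the 254 the matched species was a calyptrate fly, the group of houseflies and blowflies, and 139 were matched to Musca domestica itself. The other 86 were matched to distant insects such as leafhoppers, whiteflies, mantids and beetles, most of them as ND4 or ND5. Contigs of the first kind supplied 12069 CPM ± 3632 and those of the second kind 857 CPM ± 232 (SD, n = 8). The 4-fold range was reached by 11 of 54 contigs of the first kind and 19 of 31 of the second, beside 50% of all contigs. Their median ratios were 3.00 and 4.58, beside 4.00 for all contigs. Without No.1 and No.2 the counts with a 4-fold range were 0 of 54 and 8 of 31, beside 22.4% of all contigs. Whether contigs of the second kind are housefly mitochondrial transcripts was not tested.

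Of the 8 members with the widest range, 7 were matched to distant insects. The widest was ND4 contig M_dom_rep_c17047, matched to the leafhopper Homalodisca vitripennis, at 0.276 CPM in No.2, a median of 10.5 CPM and 29.0 CPM in No.8, a 105-fold range. Another contig with the same kind of match, M_dom_rep_c24902, ran from 1.24 CPM in No.2 through 42.4 to 77.3 CPM in No.4. Yet another ND4 contig, M_dom_rep_c6341, matched to a thrips, split the samples differently, with 13.3, 7.73, 16.1 and 12.3 CPM in No.1, No.2, No.7 and No.8 and no more than 0.974 CPM in the other 4. The remaining widest members were M_dom_rep_c11955 (17.8-fold) and M_dom_rep_c28013 (14.5-fold) as ND4, M_dom_rep_c19634 as ND5 (16.2-fold), M_dom_rep_c12817 as ND2 (15.9-fold) and M_dom_c29891 as ND3 (14.2-fold), of which 4 were lowest in No.2. The smallest ranges besides SDHD were those of COX3 contig M_dom_rep_c13623 (1.68-fold), COX1 contig M_dom_rep_c27327 (1.68-fold) and ND4 contig M_dom_rep_c11637 (1.81-fold).

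**Figure D4:**
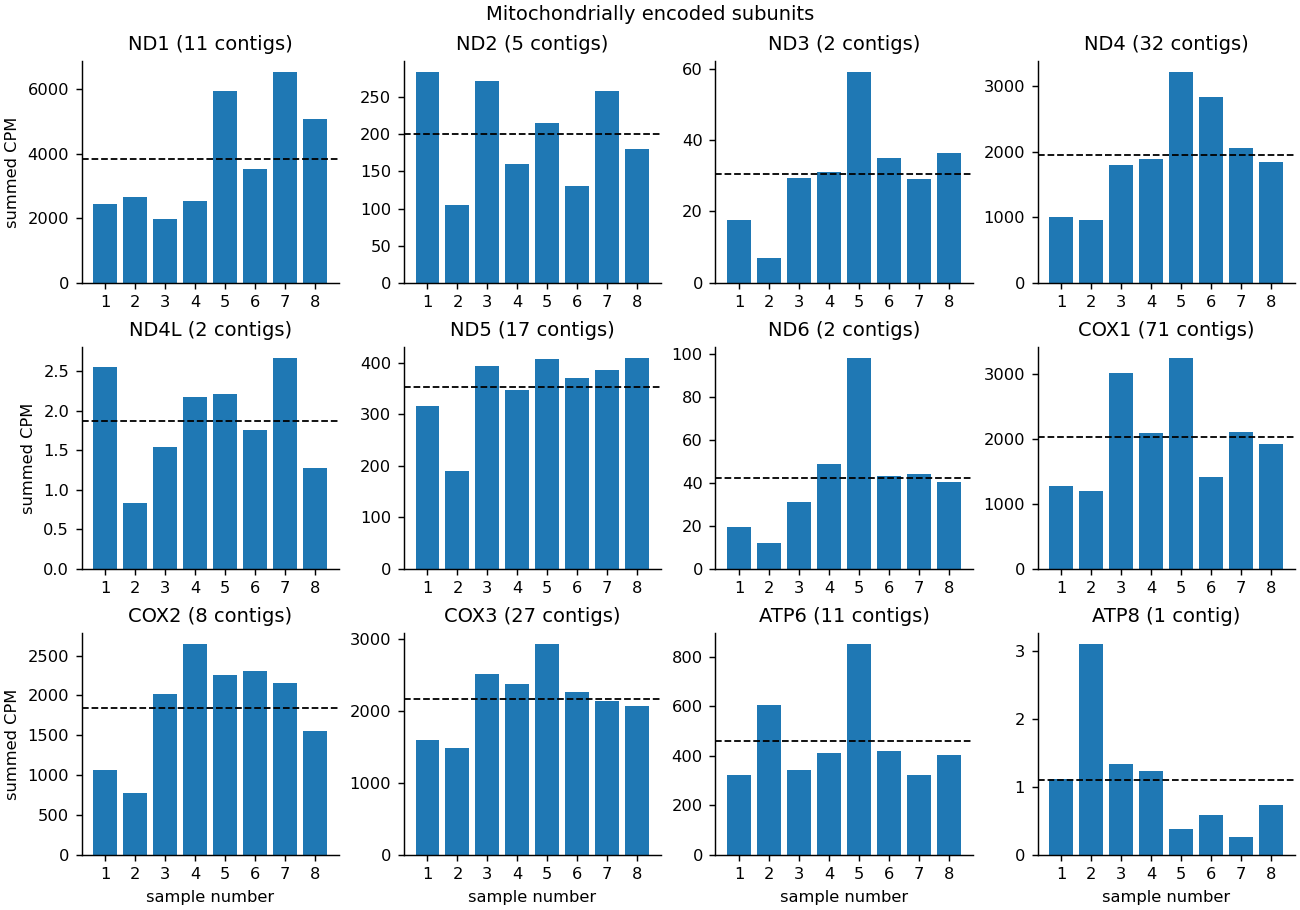
Summed CPM of the contigs of each mitochondrially encoded subunit (at least 5 counts on average) in samples 1 to 8, 1 panel per subunit with its own axis from 0. Dashed lines are means over the 8 samples, and the panels show that No.5 is highest for ND3, ND4, ND6, COX1, COX3 and ATP6, while ND1 is highest in No.7 and COX2 in No.4.

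Among complex I subunits of the mitochondrial genome, ND1 led with 3834 CPM ± 1765 (SD, n = 8). A single contig of 2591 bp, M_dom_rep_c11766, held 95.4% of its counts and 15.0% to 39.8% of all mitochondrial counts, depending on the sample. It ran from 1858 CPM in No.3 through 2923 to 6385 CPM in No.7, followed by No.5 (5724 CPM) and No.8 (4941 CPM). In the RefSeq gene order ND1 follows cytochrome b, and the large ribosomal RNA gene is known to lie beyond ND1 in insect mitochondria. How much of the contig lies outside ND1 was not tested. The ND1 levels given here and per kilobase may therefore include counts of neighbouring genes. Without it the mitochondrial sum was 9262 CPM ± 2565.

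ND4, a proton-pumping membrane subunit, summed to 1949 CPM ± 787. Its main contig M_dom_rep_c5523 ran from 600.5 CPM in No.1 through 1425 to 2788 CPM in No.5, with 2423 CPM in No.6, and so shared the nuclear shape. ND5 summed to 353 CPM ± 72.8 and ND2 to 200.5 CPM ± 67.5. ND2 was highest in No.1 at 284 CPM, a value led by M_dom_rep_c6532, which was matched to a whitefly and ran from 55.6 CPM in No.2 to 248 CPM in No.1. The housefly-matched ND2 contig M_dom_rep_c5725 ran from 30.3 CPM in No.1 to 91.4 CPM in No.5. ND3, ND6 and ND4L were low, at means of 30.6, 42.3 and 1.87 CPM. ND3 ran from 7.04 CPM in No.2 to 59.2 CPM in No.5, and ND6 from 12.2 CPM in No.2 to 98.5 CPM in No.5.

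The complex IV core subunits COX1, COX2 and COX3 summed to 2037 CPM ± 770, 1846 CPM ± 654 and 2170 CPM ± 473 (SD, n = 8). COX1 carries the oxygen-reducing centre, and its main contig M_dom_rep_c7105 ran from 534 CPM in No.2 through 1070 to 2105 CPM in No.5. Its level was 1769 CPM for No.3 but only 730.2 CPM for No.6. COX1 thus separated No.5 from No.6, which lay close together for the nuclear subunits COX5A and beta. COX2, which receives electrons from cytochrome c, was lowest in No.2 at 778 CPM and highest in No.4 at 2652 CPM. Its most counted contig M_dom_c3076, matched to Musca inferior, reached 973 CPM in No.5, whereas M_dom_c5350, matched to Musca domestica, reached 715 CPM in No.4.

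COX3 contigs disagreed among themselves. Of the 18 averaging at least 50 counts, 3 peaked in No.5, 9 in No.4 and 6 in No.1. M_dom_rep_c6072, the most abundant, ran from 451 CPM in No.1 through 1262 to 1935 CPM in No.5. By contrast M_dom_c27715 peaked in No.4 at 198 CPM and had its lowest value, 66.9 CPM, in No.5. Contig M_dom_rep_c28886 peaked in No.1 at 73.4 CPM, with its lowest value of 35.0 CPM in No.7. The 3 contigs highest in No.5 summed to 1538 CPM on average, the 9 highest in No.4 to 409 CPM and the 6 highest in No.1 to 205 CPM. These contigs were grouped by their own values, so the split is a description with no test. All name the same subunit, and the sum of COX3 follows the 1 contig that holds 51.0% of its counts.

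**Figure D5:**
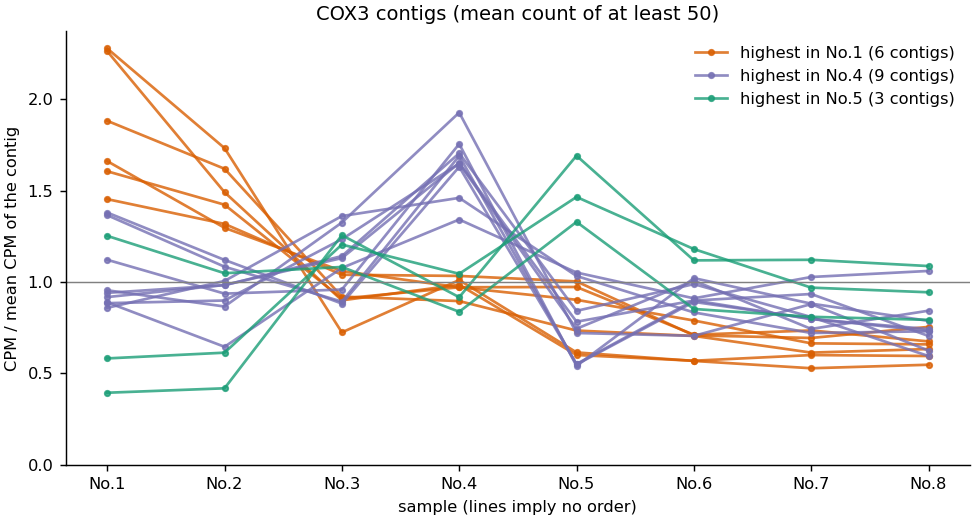
CPM of each COX3 contig averaging at least 50 counts, divided by its own mean, in the 8 samples. Colours mark the sample with the contig's highest value (6 contigs in No.1, 9 in No.4 and 3 in No.5), and most of the contigs highest in No.4 lie below their mean in No.5.

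ATP6 and ATP8 belong to the proton channel of complex V. ATP6 summed to 461 CPM ± 183 (SD, n = 8) and was highest in No.5 at 854 CPM and second in No.2 at 607 CPM, the sample that was lowest for most other mitochondrial subunits. Its main contig M_dom_rep_c14473 ran from 243 CPM in No.7 through 283 to 692 CPM in No.5. ATP8 had 1 contig, M_dom_rep_c34730, matched to a butterfly and near the detection limit at 1.09 CPM ± 0.90.

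Levels between genes were compared per kilobase of contig, as CPM per kilobase of the most counted contig of each subunit. The labels describe a cDNA library that was normalised to even out abundant transcripts, and whether the counted reads came from such a library was not given in the sources used here. Among mitochondrial subunits COX3 was first at 1753 ± 753, followed by COX1 at 1642 ± 794, ND1 at 1414 ± 682, ND4 at 1170 ± 589 and COX2 at 1132 ± 465 (SD, n = 8). Neighbours in this top group changed places between samples, COX3 being above COX1 in 4 of 8 samples. COX2 was above the next, ATP6 at 284 ± 127, in 8 of 8. Among nuclear subunits ATP synthase e stood at 1240 ± 387 and COX5A at 1229 ± 480, with e above COX5A in 3 of 8 samples. The unnamed complex I contig, at 896 ± 264, was above the beta subunit, at 417 ± 137, in 8 of 8 samples. At the low end were RIP1 at 37.8 ± 9.1, ATP synthase alpha at 24.3 ± 6.7 and SDHB at 17.2 ± 6.5.

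The balance between the genomes depended on how it was measured. Over summed counts per kilobase of all contigs, the mitochondrial to nuclear ratio was 0.507 ± 0.112 (SD, n = 8), a mean log2 ratio of -1.01 (exact two-sided sign-flip permutation p = 0.00781, the smallest that 8 samples allow), and it was below 1 in 8 of 8 samples. Many of the mitochondrial contigs are little counted and name the same subunit, such as 71 COX1 contigs of 52095 bp in sum. They lengthen the divisor. With only contigs of at least 500 bp the mean log2 ratio was still -0.89. With only the most counted contig of each subunit the mean log2 ratio was 1.21, with the opposite sign, so no order of the genomes can be read from these data. Over all contigs the ratio was highest in No.7 and No.8, at 0.688 and 0.666, and lowest in No.6, at 0.384. With the most counted contigs No.7 and No.8 were again highest, at 3.57 and 3.46, but No.4 was lowest, at 1.77. Without the ND1 contig M_dom_rep_c11766 the order changed, with 0.431 in No.8, 0.426 in No.3, 0.423 in No.7 and the lowest value, 0.293, in No.6, and the range fell from 1.79-fold to 1.47-fold. Without No.1 and No.2 the mean log2 ratio over all contigs was -0.95 (exact two-sided sign-flip permutation p = 0.0312, the smallest that 6 samples allow).

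Genes of the same pathway outside the name rule were counted by 17 lists (carriers, citric acid cycle enzymes, cytochromes, mitochondrial transcription factors), of which 13 had contigs with an insect match, 67 contigs in all. Their sum ran from 1662 CPM in No.1 to 3948 CPM in No.5. Of the 34 averaging at least 50 counts, 19 were highest in No.5 or No.6 (background 11%) and 9 reached the 4-fold range (background 50%). Porin, the channel of the outer mitochondrial membrane, summed to 1297 CPM ± 347, from 690.0 CPM in No.1 to 1883 CPM in No.5. The ADP/ATP carrier, which exports the product, summed to 582 CPM ± 169 and was also lowest in No.1, at 411 CPM, and highest in No.5, at 933 CPM. Succinyl-CoA synthetase, of the citric acid cycle, went from 159 CPM in No.2 to 639 CPM in No.5. Cytochrome b, the mitochondrially encoded subunit of complex III, had 24 contigs with 136 CPM ± 30.2 and was highest in No.4 at 181 CPM. The phosphate carrier, at 50.3 CPM ± 6.4, was highest in No.5 at 57.7 CPM but lowest in No.6 at 39.5 CPM, and aconitase, at 16.2 CPM ± 3.4, was highest in No.3. The mitochondrial transcription factors had another order, with 31.9 CPM in No.2 as their highest and 16.4 CPM in No.5 as their lowest value, and pyruvate dehydrogenase was highest in No.1 at 77.3 CPM and lowest in No.8 at 33.8 CPM.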

How the data were processed

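The authors deposited 1 table of read counts per assembled contig for 8 samples, with a scaled signal column beside each count column, which the deposited values show to be the counts times 1 factor per sample and which was not used. The aligner, the counting tool and the reads counted were not given in the sources used here. The members, lists and summaries were chosen with earlier results of these data known. Counts were divided by sample totals (CPM). Summed CPM of members used contigs averaging at least 5 counts. Sums of the related, yolk, eggshell, testis and muscle lists and of the matches other than insects used all their contigs. Ranges used contigs averaging at least 50 counts, with fewer than 3 counts set to 3. The chi-square test was adjusted over all contigs by the Benjamini-Hochberg method. Ratios were tested by exact sign flips and correlations by exact permutation. Scripts were tested on simulated data. Named contigs were all mitochondrial contigs averaging at least 5 counts (summarised by subunit), the 4 most abundant nuclear contigs per complex, the 8 widest and 4 narrowest ranges and 3 assembly factors. Alternatives were TMM library sizes (edgeR 4.0.16), DESeq2 1.42.0 size factors, other minimums, length and match filters, and each sample left out. Tools were matplotlib 3.10.9, pandas 2.3.3, scipy 1.17.1 and numpy 2.4.6 under Python 3.11.15, and R 4.3.3. Counting error only is covered by the chi-square test.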

Additional observations from a re-analysis of the deposited data

Results flagged for a closer look

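Dixon's test was applied to 85 sets of 8 values, and 4 held a sample far from the other 7, a number that chance alone could give at about 1 in 20. ATP8 (M_dom_rep_c34730) stood at 3.11 CPM in No.2, with the next sample at 1.34 CPM. The ND5 sum was 190 CPM in No.2, with the next lowest sample at 317 CPM. The ND6 sum was 98.5 CPM in No.5, with the next at 48.9 CPM. COX17 contig M_dom_rep_c29293 stood at 9.47 CPM in No.7, with the next at 4.71 CPM.

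The 231 contigs with a matching name from species other than insects were not used in the report. They held counts, at 1670 CPM ± 353 (SD, n = 8) in sum, and were lowest in No.2 at 985 CPM and highest in No.3 at 2102 CPM. The largest group, 48 contigs at 292 CPM, was matched to the nematode Heterodera glycines. Whether these contigs come from the flies was not tested.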

How the results depend on the processing

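No paired analysis was possible because all 8 samples carry 1 strain label. Members varying between samples numbered 212 of 236, 129 of 129 for those averaging at least 50 counts, and 201 to 218 with 1 sample left out. The 4-fold range was reached by 33 of 129 members, and by 95 of 236 for those averaging at least 5 counts. It was reached by 10 without No.1 and No.2, and by 20 to 32 with 1 sample left out. The share of all contigs at the minimum of 5 counts, or with 1 sample left out, was not computed. The nuclear sum moved by less than its SD under every alternative run, from 7506 to 8341 CPM with 1 sample left out. The mitochondrial sum was 8795 CPM with only the most counted contig of each subunit and 12023 to 13630 CPM with 1 sample left out. The mean log2 ratio of the genomes was -1.01 (-1.08 to -0.96 with 1 sample left out), and changed sign to 1.21 with only the most counted contig of each subunit and to 0.68 with no division by length. Of 11 relations, 7 passed by r, 8 without the ND1 contig and 11 with TMM library sizes or DESeq2 size factors. The count was 4 without No.1 and No.2, and 3 to 6 with 1 sample left out. The alternatives without No.1 and No.2, with calyptrate matches only and without the ND1 contig, and both other scalings of the counts of highest and lowest samples, were chosen after seeing the data. Mean levels of the named nuclear, widest, narrowest and assembly factor contigs stayed within 1 SD, except 5 that were above it when the totals excluded the 10 most counted contigs. The other mitochondrial contigs were not run singly under these alternatives. Causes were not tested. A count of 3 equals 0.186 CPM in the deepest and 0.292 CPM in the shallowest sample.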
